A study of Mus musculus with 6 samples.

Results

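The genes of cellular iron uptake, storage and export examined here are 10: Tfrc, Slc11a1, Slc11a2 and Steap3 for uptake, Fth1 and Ftl1 for storage, Slc40a1 for export, Hmox1 for the release of iron from heme, and Aco1 and Ireb2 for regulation. They were taken by name for their roles, with earlier results of these data known, and are 10 of 29374 genes with any estimated read. All 10 were among the 16656 genes that passed the filter on low counts. Poly(A) RNA was sequenced from CD11b+Gr1+ splenocytes, myeloid cells sorted by flow cytometry from tumor-bearing mice with the Mll-AF9 knock-in, a fusion oncogene known to cause acute myeloid leukemia. Both groups carry this allele, with 3 Rpl22+/+ libraries and 3 Rpl22-/- libraries, the latter from mice that lack the large-subunit ribosomal protein Rpl22 in the germ line; per the methods, mice were backcrossed to C57BL/6. The question asked was how these genes differ when Rpl22 is lost in the leukemia. The labels give no age and no treatment. The methods describe young adult mice in general, but Mll-AF9 mice were killed when signs of disease appeared or at set times. The age of the mice sampled here is thus not known. The study names the source of its explants with only 1 mouse identifier per genotype. Nothing in the labels tells if the libraries are separate animals, so all p-values measure the spread between libraries.

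Cells take up iron bound to transferrin through the transferrin receptor, encoded by Tfrc; in the endosome the metalloreductase Steap3 reduces the iron and the divalent metal transporter Slc11a2 moves it into the cytosol. Slc11a1, also known as Nramp1, moves metal ions out of the phagosome of macrophages and neutrophils. Iron that is not used is stored in a shell of ferritin heavy chains (Fth1), which oxidize it, and light chains (Ftl1), or leaves through ferroportin (Slc40a1), the known iron exporter of mammalian cells. Hmox1 opens the heme ring and frees its iron. When iron is scarce, the iron regulatory proteins Aco1 and Ireb2 bind a stem-loop in messenger RNAs, the iron-responsive element, which blocks translation when it lies in a 5′ UTR and protects the transcript from decay when it lies in a 3′ UTR.

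The element was searched for in the transcript sequences, since it is the feature by which these messages are known to share control. The search asked for an unpaired C, a stem, the loop CAGTG followed by a base other than G, and the returning strand, with 1 unpaired base allowed in the returning strand. It was found in 47 of 58797 protein-coding transcripts (0.0799%), which belong to 29 of 21901 genes (0.132%), and in 5 of the 10 iron genes. A match is a description of the sequence, not a measurement of binding. An element with another loop sequence would not have been found. The matches are given below from 5′ to 3′ as DNA letters, with the unpaired C and the 6-base loop in capitals. The letters of the Tfrc elements were given here by position and need not match published names.
Fth1: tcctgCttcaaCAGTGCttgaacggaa
Ftl1: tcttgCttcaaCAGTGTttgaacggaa
Slc40a1: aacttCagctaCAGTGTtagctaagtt
Slc11a2: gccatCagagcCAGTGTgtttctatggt
Tfrc element A: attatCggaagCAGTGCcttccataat
Tfrc element B: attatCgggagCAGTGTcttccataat
Tfrc element C: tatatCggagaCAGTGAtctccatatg
Tfrc element D: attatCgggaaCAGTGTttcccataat
The elements of Fth1 (chr19:9982733-9982759, plus strand), Ftl1 (chr7:45459780-45459806, minus strand) and Slc40a1 (chr1:45925466-45925492, minus strand) lie in 5′ UTRs. Those of Slc11a2 (chr15:100395153-100395180, minus strand) and Tfrc lie in 3′ UTRs. The 4 matches found in Tfrc are at chr16:32631220-32631246, chr16:32631599-32631625, chr16:32631664-32631690 and chr16:32631711-32631737 on the plus strand. These positions are on GRCm38, the build of the transcript annotation searched; positions of genes given further on are those of the deposited table, on GRCm39, and must not be set beside those. Slc11a2 is the member whose stem holds the additional unpaired base.

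Rpl22 itself was at 148, 235 and 152 CPM (gene reads per library total, after composition scaling) in the Rpl22+/+ libraries and at 58.3, 89.9 and 73.5 in the Rpl22-/- libraries, lower in every Rpl22-/- library (log2 fold change -1.27 ± 0.25 (SE), edgeR adjusted p = 0.0106). Depth ran from 35828500 to 102866127 estimated reads. Rpl22+/+ replicate 2 stood apart: over 13202 genes its log2 CPM correlated with those of the other Rpl22+/+ libraries at r = 0.926 and 0.934, across genes, against 0.992 between those 2. Calls that changed when this library was left out, and counts that it moved by over 1.5 times, are given both ways. The pan-leukocyte gene Ptprc was at 155 CPM in that library against 1128 and 1054 in the other Rpl22+/+ libraries, and the gate marker Itgam was at 1838 to 2085 CPM in Rpl22+/+ and 815 to 1036 in Rpl22-/-. Of the 7 markers of the sorted myeloid cells, Mpo rose and Itgam and Ly6g fell. Of 12 erythroid markers, 11 rose, with summed levels of 90.3 to 136 CPM in Rpl22+/+ and 634 to 1198 in Rpl22-/-, and Klf1 was at 0 in Rpl22-/- replicates 1 and 3. Of 12 markers of tissue macrophages, 7 rose at levels under 10 CPM and Adgre1 fell, with sums of 109 to 146 and 71.7 to 117 CPM. Of 4 T cell markers all fell (sums 30.4 to 42.1 and 11.4 to 13.4), of 4 B cell markers Pax5 fell (485 to 610 and 293 to 449), of 5 platelet markers none passed the test (2.79 to 4.51 and 3.36 to 3.64), with 2 tested, and of 5 stromal markers Pdgfrb fell (60.1 to 71.7 and 73.9 to 94.3). The part of these cell types in the values below was not tested, and in a bulk sample fewer cells of a type and less RNA per cell cannot be told apart.

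Of the 10 iron genes, 3 passed the test (adjusted p under 0.05): Slc40a1, Slc11a1 and Steap3. All 3 were over 2-fold lower in Rpl22-/-, and 0 of the 10 passed in the higher direction, where the edgeR test passed 27.6% of all genes tested, 13.8% lower and 13.7% higher, with 8.54% over 2-fold lower and 8.93% over 2-fold higher. At an unadjusted p under 0.05 Fth1 and Ftl1 are added to those 3. The groups did not overlap for 5 of the 10 (Slc40a1, Slc11a1, Steap3, Fth1 and Tfrc), a share near the 46.1% found over all genes. This set is that of the CPM scale; on the TPM scale Fth1 and Tfrc overlapped between the genotypes, while Ftl1 and Aco1 did not. With the replicate number as a block, 6 of the 10 passed, with Tfrc, Fth1 and Ftl1 added, and without Rpl22+/+ replicate 2, 5 passed, with Aco1 and Ftl1 added. The share of all genes tested that passed rose as well, to 33.8% with the block and 40.0% without Rpl22+/+ replicate 2. With no composition factor, the split over all genes moved from 2288 higher and 2306 lower to 3543 and 2222, and 4 of the 10 passed.

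**Figure D1:**
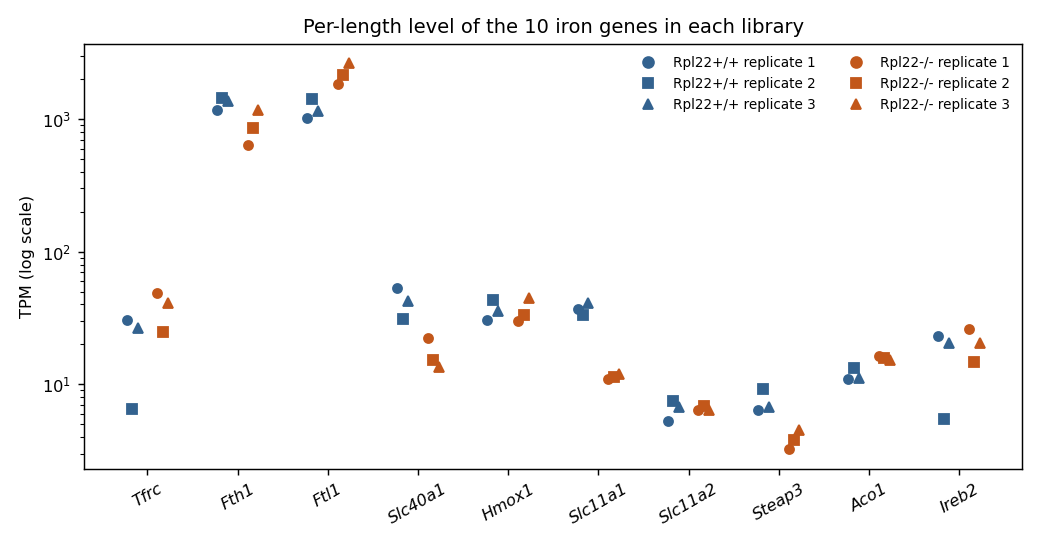
TPM (a level scaled for transcript length) of each of the 10 iron genes on a log axis, with 1 point per library, in blue for Rpl22+/+ and orange for Rpl22-/-, and the symbol giving the replicate number. The ferritin chains lie at 639 TPM or more and all other members at 53.6 or less; Slc40a1, Slc11a1 and Steap3 are lower in every Rpl22-/- library than in any Rpl22+/+ library, and Rpl22+/+ replicate 2 lies apart for Tfrc and Ireb2.

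On the scale that allows genes to be compared, TPM, the ferritin chains led by a wide margin. Their order is that of Ftl1 counted without its near-identical copies, which held 1265, 1737 and 1340 TPM in Rpl22+/+ and are described further on; with them the light chain was above the heavy chain in all 6 libraries. In Rpl22+/+ the mean levels were 1330 TPM for Fth1, 1196 for Ftl1, 42.3 for Slc40a1, 37.1 for Slc11a1, 36.5 for Hmox1, 21.3 for Tfrc, 16.4 for Ireb2, 11.8 for Aco1, 7.48 for Steap3 and 6.53 for Slc11a2. Neighbours in this order had overlapping ranges over the libraries, except for Ftl1 and Slc40a1, Hmox1 and Tfrc, and Aco1 and Steap3. In Rpl22-/- the order was Ftl1 at 2210, Fth1 at 888, Tfrc at 38.3, Hmox1 at 35.9, Ireb2 at 20.3, Slc40a1 at 17, Aco1 at 15.8, Slc11a1 at 11.4, Slc11a2 at 6.54 and Steap3 at 3.86. There the ranges overlapped for Tfrc and Hmox1, for Ireb2 and Slc40a1, and for Slc40a1 and Aco1. The exporter Slc40a1 thus had rank 3 in Rpl22+/+ and rank 6 in Rpl22-/-, and Tfrc rank 6 and rank 3.

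Slc11a1, the phagosomal metal transporter (chr1:74414354-74425221, plus strand), had the largest difference of the 10. Its levels were 44.9, 59.4 and 50.2 CPM in Rpl22+/+ and 11.6, 13.8 and 14 in Rpl22-/-. The groups were far apart, with the highest Rpl22-/- library well under the lowest Rpl22+/+ library. The difference was 3.92-fold (log2 fold change -1.97 ± 0.16 (SE), edgeR adjusted p = 0.000413), it passed in all 25 alternatives, and it was the only member to pass a test against a minimum fold of 2. Its log2 fold change lay between -2.07 and -1.61 over those alternatives. For this gene and for Slc40a1, the alternatives with copies added nearly repeat the same fits without them. The 25 are thus not all separate checks.

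Slc40a1, ferroportin (chr1:45947228-45965683, minus strand), was at 125, 95.1 and 100.4 CPM in Rpl22+/+ and at 50.7, 40.3 and 31.9 in Rpl22-/-. Each Rpl22-/- library was lower than every Rpl22+/+ library. The level was 2.61-fold lower (log2 fold change -1.38 ± 0.21 (SE), edgeR adjusted p = 0.00407) and passed in 24 of 25 alternatives, all but the test against a minimum fold of 2. Its counts of 7041 to 8752 reads in Rpl22+/+ and 1895 to 4039 in Rpl22-/- leave little counting error.

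Steap3, the endosomal ferrireductase (chr1:120118487-120200435, minus strand), was at 13.0, 24.1 and 14 CPM in Rpl22+/+ and at 6.31, 8.51 and 9.37 in Rpl22-/-. The groups did not overlap, with Rpl22+/+ replicate 2 the highest of the 6 libraries. The level was 2.11-fold lower (log2 fold change -1.07 ± 0.29 (SE), edgeR adjusted p = 0.0328). This call was lost without Rpl22+/+ replicate 3 (log2 fold change -1.20, adjusted p = 0.0594) and without Rpl22-/- replicate 1 (-0.92, 0.110), replicate 2 (-1.10, 0.0677) or replicate 3 (-1.19, 0.0731). It held without Rpl22+/+ replicate 1 (-1.24, adjusted p = 0.0388) and, with a smaller log2 fold change, without Rpl22+/+ replicate 2 (-0.78, adjusted p = 0.0217). Alongside these 3 genes, the macrophage marker Adgre1 fell from 77.7 to 106 CPM to 22.2 to 48.0 CPM. In contrast, 7 of the 11 macrophage markers tested rose at a few CPM, such as Cd5l from 1.18 to 2.15 CPM to 4.2 to 7.01 CPM. The neutrophil marker Ly6g fell from 149 to 178 CPM to 11.1 to 15.7 CPM. Of the other sorted myeloid markers, Itgam fell, Mpo rose from 1033 to 1854 CPM to 9459 to 11275 CPM, and the rest did not pass. The part of these markers in the differences was not tested.

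**Figure D2:**
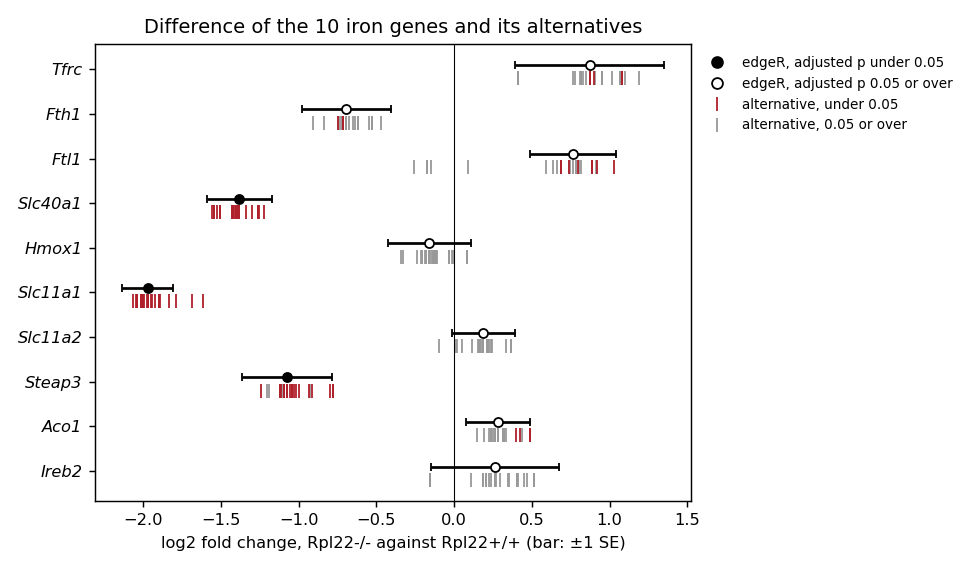
Log2 fold change of each of the 10 iron genes, Rpl22-/- against Rpl22+/+, with circles for the edgeR estimate and its SE, filled where the adjusted p was under 0.05, and ticks for each of 25 alternative fits, red where the adjusted p was under 0.05. Slc11a1, Slc40a1 and Steap3 stay below 0 in every alternative, and the ticks of Ftl1 from -0.26 to 0.09 are the 5 fits with its copies added, 2 of which coincide.

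Tfrc, the transferrin receptor (chr16:32427738-32451612, plus strand), was at 79.5, 19.8 and 71.4 CPM in Rpl22+/+ and at 118, 83.4 and 111 in Rpl22-/-. On this scale all Rpl22-/- libraries were higher than all Rpl22+/+ libraries, with Rpl22+/+ replicate 2 far under the rest, while on the TPM scale the groups overlapped, with 30.6 TPM in Rpl22+/+ replicate 1 and 24.8 in Rpl22-/- replicate 2. The log2 fold change was 0.87 ± 0.48 (SE, edgeR adjusted p = 0.233) and did not pass. It passed with the replicate number as a block (1.08, adjusted p = 0.0456) and with a correction for GC content (0.87, adjusted p = 0.0103). Without Rpl22+/+ replicate 2 the log2 fold change was 0.41 and the adjusted p was 0.0699. The erythroid markers, among them Slc4a1 at 3.73 to 6.75 and 26.5 to 37.6 CPM, moved the same way.

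Slc11a2, the endosomal transporter (chr15:100285779-100322953, minus strand), was at 9.70, 15.2 and 10.7 CPM in Rpl22+/+ and at 12.5, 14.2 and 13.9 in Rpl22-/-, with overlapping groups (log2 fold change 0.19 ± 0.20 (SE), edgeR adjusted p = 0.556). Its sign turned with an offset for transcript length, to -0.10. Leaving out Rpl22+/+ replicate 1 gave a log2 fold change of 0.053, and leaving out replicate 2 gave 0.36 (adjusted p = 0.897 and 0.0789). Hmox1, heme oxygenase (chr8:75820249-75827217, plus strand), was at 32.4, 59.0 and 38.9 CPM and at 30.6, 38.5 and 47.4, and the groups overlapped throughout (log2 fold change -0.16 ± 0.27 (SE), edgeR adjusted p = 0.712). Without Rpl22+/+ replicate 2 it was 0.081. No alternative brought either gene under the threshold.

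Of the iron regulatory proteins, Aco1 (chr4:40143081-40198338, plus strand) was at 29.1, 46.8 and 31.1 CPM in Rpl22+/+ and at 41.4, 47.1 and 41.8 in Rpl22-/-. Rpl22+/+ replicate 2 reached the Rpl22-/- level and the other 2 Rpl22+/+ libraries lay under it. The log2 fold change was 0.28 ± 0.21 (SE, edgeR adjusted p = 0.365), and without Rpl22+/+ replicate 2 it was 0.49 and passed (adjusted p = 0.0194). With Rpl22+/+ replicate 1 or replicate 3 left out alone it was 0.15 and 0.19 (adjusted p = 0.692 and 0.667). Ireb2 (chr9:54771073-54819814, plus strand) was at 94.4, 30.5 and 88.9 CPM in Rpl22+/+ and at 103, 67.8 and 85.6 in Rpl22-/-. Its groups overlapped, and replicate 2 was the lowest library of each genotype. The log2 fold change was 0.26 ± 0.41 (SE, edgeR adjusted p = 0.697), and it turned to -0.15 (adjusted p = 0.483) without Rpl22+/+ replicate 2.

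The ferritin chains had opposite signs when Ftl1 was counted without its near-identical copies, which are described below. Fth1 (chr19:9957962-9962462, plus strand) was at 698, 1113 and 820 CPM in Rpl22+/+ and at 366, 565 and 697 in Rpl22-/-. The groups did not overlap, but Rpl22+/+ replicate 1 and Rpl22-/- replicate 3 were nearly equal. The log2 fold change was -0.69 ± 0.29 (SE, edgeR adjusted p = 0.123), and with the replicate number as a block it was -0.72 and passed (adjusted p = 0.0359). Ftl1 (chr7:45107368-45109308, minus strand) was at 595, 1093 and 680 CPM in Rpl22+/+ and at 1057, 1386 and 1574 in Rpl22-/-. One Rpl22+/+ library, replicate 2, overlapped the Rpl22-/- range. The log2 fold change was 0.76 ± 0.28 (SE, edgeR adjusted p = 0.0873), with the block 0.79 (adjusted p = 0.0291), and without Rpl22+/+ replicate 2 it was 1.03 (adjusted p = 0.00882). Ftl1 passed in 8 of 25 alternatives, among them the DESeq2 test (0.74, adjusted p = 0.0323) and the GC correction (0.69, adjusted p = 0.0210). It passed in none of those with copies added, where the log2 fold change was -0.26 to 0.09.

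The value of Ftl1 turned on reads given to its near-identical copies. A sequence search, added after the values were seen, found 7 other genes with at least 90% identity to the Ftl1 transcript over at least 300 bases. Ftl1-ps1, on chromosome 13, matched Ftl1 over 910 bases with 4 mismatches (99.6% identity) and also holds the iron-responsive element. Ftl2-ps on chromosome 4 and Ftl1-ps2 on chromosome 10 matched over 552 and 549 bases with 7 and 12 mismatches. In Rpl22+/+, 28640, 54103 and 34095 reads were assigned to Ftl1-ps1, against 86, 366 and 407 in Rpl22-/-. Ftl2-ps held 10591, 19622 and 11417 reads and 0, 2 and 6. Ftl1-ps2 held 420, 824 and 361 reads and 4, 24 and 32. Few reads were thus assigned to any of the 3 in the Rpl22-/- libraries, and the edgeR adjusted p of Ftl1-ps1 was 7.66e-05 (log2 fold change -7.34 ± 0.38, SE).

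Ftl1-ps1 differs from the Ftl1 transcript at 4 bases, counted from the 5′ end of the 968-base Ftl1 transcript, with the base of Ftl1 first: A196G in the 5′ UTR, G721A and G757A in the coding sequence, and A817G in the 3′ UTR. The substitutions G721A and G757A are present in Ftl1-ps1, Ftl2-ps, Ftl1-ps2 and Gm15590, the 4 copies with at least 97% identity and no gap. The windows around both positions are shown because a read must cover such a base to be told apart, with the differing base in capitals.
Ftl1 at G721A: gcagggtggcGgggccacaac
Ftl1-ps1 at G721A: gcagggtggcAgggccacaac
Ftl1 at G757A: cgccccagggGtctctgggcg
Ftl1-ps1 at G757A: cgccccagggAtctctgggcg
Salmon divides reads that match several transcripts among them, so the values of Ftl1 and its copies are not independent. Gm15590, which carries both substitutions, held 39 reads over all libraries. The deposited values do not show which bases the reads carried. Whether those assigned to the copies came from the copies, or from an Ftl1 allele that carries the shared bases, was not tested.

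The copies held 48.7%, 47.9% and 47.4% of the reads of Ftl1 and its copies in the Rpl22+/+ libraries and 0.235%, 0.293% and 0.278% in the Rpl22-/- libraries. The share was nearly constant within each genotype, with means of 48.0 ± 0.65% (SD, n = 3) and 0.269 ± 0.030% (two-sided exact permutation p = 0.10, the smallest that 3 against 3 libraries can give). With the copies added, Ftl1 was at 1160, 2100 and 1293 CPM in Rpl22+/+ and at 1060, 1390 and 1578 in Rpl22-/-. The groups then overlapped widely and the log2 fold change turned from 0.76 to -0.18 (edgeR adjusted p = 0.694). It was -0.15 with the block, -0.26 with the GC correction and 0.09 without Rpl22+/+ replicate 2, with adjusted p-values of 0.614, 0.283 and 0.755. What set the reads of the copies apart between the genotypes was not tested. Fth1 had 1 such copy, with 1 read, and Slc11a1 had 1, with 15 reads.

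**Figure D3:**
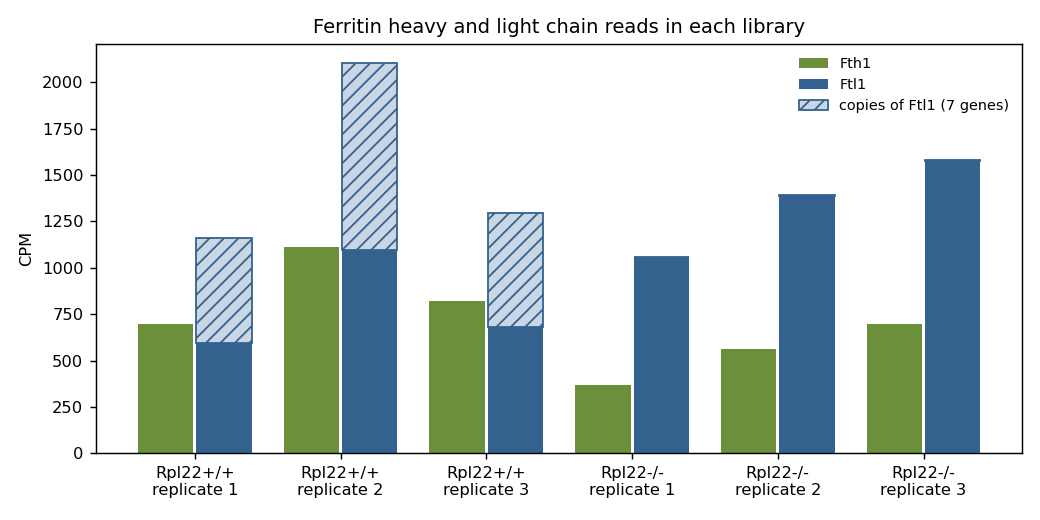
CPM of Fth1 (green) and of Ftl1 (blue) in each library, with the reads of the 7 copies of Ftl1 stacked on it (hatched). The copies make up 47.4% to 48.7% of the stacked bar in the Rpl22+/+ libraries and are barely visible in the Rpl22-/- libraries, where the bar of Ftl1 is at 1057 to 1574 CPM.

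The ratio of heavy to light chain transcripts, on the TPM scale, was 1.15, 1.02 and 1.19 in Rpl22+/+ and 0.346, 0.401 and 0.442 in Rpl22-/- when Ftl1 was counted alone. With the copies added to Ftl1 it was 0.512, 0.459 and 0.551 in Rpl22+/+ and 0.345, 0.399 and 0.441 in Rpl22-/-. The ratio was lower in every Rpl22-/- library both ways (two-sided exact permutation p = 0.10 for each, the smallest this design allows). The difference between the mean ratios, Rpl22-/- minus Rpl22+/+, shrank from -0.725 to -0.112.

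The division of each gene among its transcripts was compared as well. Of 38 member transcripts tested for their usage within the gene, 0 passed edgeR's test across all 46279 transcripts tested, of which 0.633% passed, 3 of the 38 had an unadjusted p under 0.05, and limma passed 0, with 4 at an unadjusted p under 0.05. A single transcript held most of the TPM of Hmox1 (99.0% in Rpl22+/+ and 98.0% in Rpl22-/-), Steap3 (97.1% and 96.8%), Aco1 (95.6% and 94.9%), Ireb2 (93.8% and 93.2%), Slc40a1 (93.2% and 90.9%), Ftl1 (92.4% and 92.1%) and Fth1 (75.8% and 81.0%). A 4890-base transcript, 1 of 2 that hold the 4 elements, had 62.6% and 69.4% of the TPM of Tfrc. A 166-base transcript, not tested for usage, had means of 18.4% and 11%. Its shares were 14.3%, 30.7% and 10.2% in Rpl22+/+ and 12.4%, 8.68% and 11.9% in Rpl22-/-, with Rpl22+/+ replicate 2 the highest. Slc11a1 was divided among several transcripts: its 2315-base coding transcript held 48.9% and 41.8%, retained-intron transcripts of 2584 and 704 bases held 12.1% and 14.1%, and 11.3% and 12%, and a noncoding 378-base transcript held 7.56% and 18.3%. Shares of the 378-base transcript were 10.2%, 0% and 12.4% in Rpl22+/+ and 20.1%, 19.2% and 15.6% in Rpl22-/-.

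Transcripts that carry an iron-responsive element made up most of the output of 4 of the 5 genes that have one. For Fth1, Slc40a1 and Tfrc these include transcripts without a coding sequence, and only transcripts matched to the annotation were counted. The share of TPM on element-bearing transcripts was 93.4% to 97.2% for Slc40a1, 91.7% to 94.3% for Ftl1, 84.0% to 89.9% for Fth1 and 65.0% to 84.5% for Tfrc over the 6 libraries. Slc11a2 was the exception. Its element-bearing form, of 4415 bases, held 20.5%, 12.6% and 14.6% in Rpl22+/+ and 23.4%, 14.1% and 22.1% in Rpl22-/-, and the 3025-base form without it held means of 47.3% and 60.5%. The groups overlapped for all 5 genes, and the two-sided exact permutation p-values of their shares were 0.90 for Slc40a1, 0.50 for Ftl1, 0.20 for Fth1, and 0.30 for both Tfrc and Slc11a2. A 718-base Slc11a2 transcript was at 11%, 20.2% and 10.2% in Rpl22+/+ and was listed at 0%, 4.58% and 0% in Rpl22-/- (edgeR adjusted p = 0.401), and, among the alternatives run, passed only without Rpl22-/- replicate 2 (adjusted p = 0.0332).

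The other genes of iron handling were described through 9 lists of 121 further genes, of which 107 were tested. Over all lists 13 genes were higher and 21 lower in Rpl22-/-, or 31.8% of those tested against 27.6% of all genes, a share near that background, and their median log2 fold change was 0.003 against 0.066 over all genes tested. The count of higher genes depended on the setting. It was 29, with 23 lower, with no composition factor. It was 27, with 29 lower, without Rpl22+/+ replicate 2, and 5 to 8, with 14 to 19 lower, without any other single library: 7 without Rpl22+/+ replicate 1, 5 without Rpl22+/+ replicate 3, and 7, 8 and 7 without Rpl22-/- replicates 1, 2 and 3. The counts over all genes moved in the same way, from 2288 higher and 2306 lower to 3540 and 3311 without Rpl22+/+ replicate 2, and to 1175 to 1629 higher and 1392 to 1860 lower without any other single library. With the replicate block 18 genes of the lists were higher and 24 lower, against 2943 and 2688 of all genes. Of the 28 passing genes named below from the lists, 18 kept their call with each library left out in turn. The other 10 (Ncoa4, Bmpr2, Alad, Slc46a1, Slc48a1, Slc25a28, Gclc, Slc22a17, Cisd2 and Fads2) lost it without 3 to 5 of the libraries, with adjusted p-values of up to 0.151, and none of them lost it without Rpl22+/+ replicate 2.

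In the list of iron uptake and reduction, 1 of 10 tested genes rose and 3 fell, or 4 without Rpl22+/+ replicate 2 (median log2 fold change -0.58). Tfr2, a transferrin receptor of erythroid and liver cells, rose from 0.934 ± 0.16 to 3.48 ± 0.54 CPM (SD, n = 3; log2 fold change 1.90, edgeR adjusted p = 0.00223). Lrp1, an endocytic receptor that clears heme bound to hemopexin, fell from 352 ± 116 CPM in Rpl22+/+ to 124 ± 18 in Rpl22-/- (log2 fold change -1.51, adjusted p = 0.00702). Slc39a8, a metal importer that can carry iron, fell from 4.51 CPM in Rpl22+/+ to 1.76 in Rpl22-/- (log2 fold change -1.36, adjusted p = 0.00393). The metalloreductase gene Steap4 did not pass, at 3.70 and 2.42 CPM, and Steap1, Steap2 and Cybrd1 were too low to test.

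Of 9 tested genes of ferritin storage, ferritinophagy and iron chaperones, 1 rose and 2 fell (median log2 fold change -0.20). Without Rpl22+/+ replicate 2, 2 rose and 4 fell, with the replicate block 2 rose and 2 fell, and without any other single library 1 rose and 1 fell. Ncoa4, the receptor that carries ferritin to the lysosome, fell from 417 ± 51 CPM in Rpl22+/+ to 260 ± 16 in Rpl22-/- (log2 fold change -0.68, edgeR adjusted p = 0.0160). Atg7, a core autophagy enzyme, fell from 103 to 41.1 CPM (log2 fold change -1.32), and Pcbp3, of the poly(C)-binding family that includes iron chaperones, rose from 1.25 to 4.32 CPM (log2 fold change 1.78). The iron chaperones Pcbp1 and Pcbp2 did not pass, at 309.8 and 349 CPM and at 508 and 414 CPM. In the list of export and the hepcidin axis, 0 of 10 rose and 3 fell, or 2 without any single library but Rpl22+/+ replicate 2 (median -0.32), among them the ferroxidase Cp, from 2.18 to 0.420 CPM (a log2 fold change of -2.38, adjusted p = 0.00268), and the BMP receptor Bmpr2, from 16.9 to 6.87 CPM (log2 fold change -1.29). The other one was Hamp2, the second hepcidin gene of the mouse, with only 12, 21 and 29 reads in Rpl22+/+ and 1, 2 and 3 in Rpl22-/- (edgeR adjusted p = 0.00482). Hamp, the hepcidin gene proper, was too low to test.

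Genes of heme synthesis were higher where they passed: 5 of 13 rose and 0 fell (median log2 fold change 0.42), where 13.7% of all genes rose. The count was 8 without Rpl22+/+ replicate 2 and with no composition factor, and 2 to 4 without any other single library, the lowest without Rpl22+/+ replicate 3, with 0 lower in each case. Alas1, the housekeeping first enzyme of the pathway, was at 218 ± 45 CPM in Rpl22+/+ and 984 ± 50 in Rpl22-/- (SD, n = 3; log2 fold change 2.18, edgeR adjusted p = 0.000475). Alas2, its erythroid counterpart, whose transcript holds an iron-responsive element by the same search, rose from 1.92 to 14.1 CPM (log2 fold change 2.88) and stands in the erythroid marker list as well. Alad, the second enzyme, rose from 10.2 to 19.7 CPM (a log2 fold change of 0.95, adjusted p = 0.0274). Ferrochelatase, Fech, which inserts the iron, did not pass, at 34.2 and 26.5 CPM. The erythroid markers rose as well, among them the beta-globin gene Hbb-bs from 39.7 to 328 CPM, and their part in the rise of these genes was not tested.

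In heme transport and breakdown 2 of 9 rose and 3 fell (median 0.003), against 3 higher and 4 lower without Rpl22+/+ replicate 2, and 0 or 1 higher and 1 or 2 lower without any other single library. The heme transporters moved in both directions: Flvcr1, an exporter at the cell surface, fell from 30.5 ± 1.5 CPM in Rpl22+/+ to 13.2 ± 2.3 in Rpl22-/- (log2 fold change -1.21, edgeR adjusted p = 0.00265), while Slc48a1, which moves heme out of the lysosome, rose from 75.8 to 143 CPM (log2 fold change 0.91) and Slc46a1, a folate and heme importer, from 1.60 to 3.15 (log2 fold change 0.97). Of 27 tested genes of mitochondrial iron and iron-sulfur clusters 0 rose and 1 fell, Slc25a28, a mitochondrial iron importer, from 54.7 to 40.2 CPM (a log2 fold change of -0.45, adjusted p = 0.0268). This share, 3.70%, was the lowest of the lists, but without Rpl22+/+ replicate 2, 8 of the list rose and 2 fell, with the replicate block 3 rose and 1 fell, with no composition factor 10 rose and 1 fell, and without any other single library 0 rose and 0 or 1 fell.

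**Figure D4:**
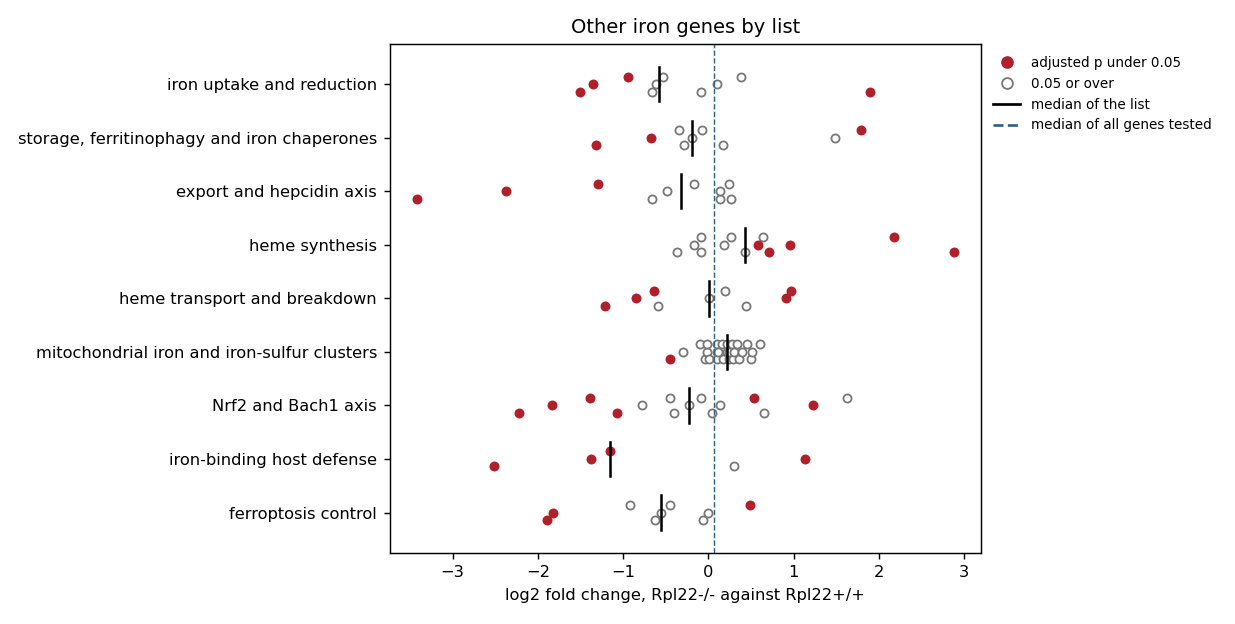
Log2 fold change, Rpl22-/- against Rpl22+/+, of each of the 107 other iron genes tested, by list, filled red where the edgeR adjusted p was under 0.05, with a black line for the median of each list and a dashed line for that of all genes tested (0.066). The genes of mitochondrial iron and iron-sulfur clusters lie closest together. In iron-binding host defense 4 of the 5 tested genes passed, against 27.6% of all genes tested. That count was lower without any single library but Rpl22+/+ replicate 2.

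The transcription factors Nfe2l2 (Nrf2) and Bach1 act on Hmox1 and other genes of redox and iron balance in opposite directions. In that list 2 of 15 rose and 4 fell (median log2 fold change -0.23), against 3 and 5 without Rpl22+/+ replicate 2, and 1 and 4 or 5 without any other single library. The cystine transporter Slc7a11 fell from 10.8 CPM in Rpl22+/+ to 2.30 in Rpl22-/- (log2 fold change -2.23, edgeR adjusted p = 0.00132), Osgin1, an oxidative stress response gene, from 30.1 to 8.43 (-1.84) and the quinone reductase Nqo1 from 3.69 to 1.4 (-1.39). Bach1 itself, the repressor of Hmox1, fell from 134 ± 4.4 to 63.9 ± 6.0 CPM (SD, n = 3; log2 fold change -1.07, adjusted p = 0.00163), while Nfe2l2 did not pass, at 109 and 112 CPM. Both of the genes that rose, Gclm and Gclc, are the subunits of glutamate-cysteine ligase. In iron-binding host defense 1 of 5 rose and 3 fell (median -1.16), where 13.7% of all genes rose and 13.8% fell. With each library left out in turn 0 or 1 of the list rose and 2 or 3 fell. Lactoferrin, Ltf, a neutrophil granule protein that binds iron, fell from 11152 ± 1947 to 1949 ± 558 CPM (SD, n = 3; log2 fold change -2.52, adjusted p = 0.00132), and the siderophore binder Lcn2 fell from 5249 to 2012 CPM (log2 fold change -1.38). Slc22a17, the receptor of Lcn2, fell from 2.16 to 0.972 CPM (log2 fold change -1.16). The neutrophil marker Ly6g fell with them (log2 fold change -3.49). Of the other sorted myeloid markers, Itgam fell, Mpo rose (log2 fold change 2.99), and Csf3r, Ly6c1, Ly6c2 and Ptprc did not pass. The part of these markers was not tested.

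Among the genes that control ferroptosis, the iron-dependent form of cell death, 1 of 9 rose and 2 fell (median log2 fold change -0.55). The count of lower genes was 4 without Rpl22+/+ replicate 2, with the replicate block and with no composition factor, and 1 to 3 without any other single library, with 0 or 1 higher. Aifm2, which protects membrane lipids without glutathione, fell from 23.1 ± 4.1 CPM in Rpl22+/+ to 6.50 ± 0.32 in Rpl22-/- (log2 fold change -1.83, edgeR adjusted p = 0.000672), and the lipid desaturase Fads2 fell from 3.04 CPM in Rpl22+/+ to 0.804 in Rpl22-/- (log2 fold change -1.89, adjusted p = 0.0258). Cisd2, an iron-sulfur protein of the endoplasmic reticulum, rose from 38.7 to 54.0 CPM (log2 fold change 0.48). Gpx4, the lipid peroxidase of this pathway, was at 168 and 167 CPM (log2 fold change -0.01, adjusted p = 0.99).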

How the data were processed

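RNA was measured in 6 libraries, grouped by their titles. Per the study's methods, the authors made poly(A) stranded libraries, trimmed the reads (Trimmomatic) and estimated transcript abundance with Salmon; versions and the transcript set are not given in the sources used here. The authors deposited estimated counts and TPM per transcript. A further deposited table holds a base mean signal over all samples, used as a check, gene positions on GRCm39, and columns of the authors' own comparison (log2 fold changes, errors, p-values), which were not used. Base means computed here were 0.972 to 1.01 times the deposited ones for the 10 genes.

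Estimated counts were summed to genes with GENCODE vM21, which matched 49.18% of 276623 transcripts and 97.96% to 98.14% of the reads, and rounded. Genotypes were compared with the quasi-likelihood test of edgeR 4.0.16 (R 4.3.3), TMM factors, filterByExpr and Benjamini-Hochberg adjustment over 16656 genes; SEs are those implied by F. A gene passed with an adjusted p under 0.05. Transcript usage was tested with diffSpliceDGE. Fits were tested on simulated data. Copies were searched with blastn 2.17.0. The members and lists were chosen with earlier results of these data known. Named are all members, up to 3 passing genes per list with the largest change and at least 1 CPM in a genotype, and markers that passed; genes given as not passing, Hbb-bs, Bach1, Hamp2, Gclc and Gclm were named after their values were seen.

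Alternatives were other size factors, filters and tests (DESeq2, limma), a length offset, GC correction, copies added, a minimum fold of 2, each library left out, and replicate number as a block. The labels give both genotypes replicates 1 to 3. Same-numbered libraries deviated together, with correlations of 0.57, 0.71 and 0.13 over genes averaging 50 counts or more, so blocked values are given where they change the call of a member or move a count by over 1.5 times; over all tested genes the third was 0.097. Against the pairing, Rpl22+/+ replicate 3 correlated better with Rpl22-/- replicate 1 (0.43) than with its own number, and the labels name no shared batch.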

Additional observations from a re-analysis of the deposited data

How the results depend on the processing

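Of the 10 iron genes, 3 passed. The count was 5 with limma on log2(TPM + 1) or log2(TPM + 0.1), 5 with the GC content correction, 6 with the replicate block, 6 with the block and GC correction together, 5 with the block and copies added, and 1 in the test against a minimum fold of 2, where the count over 2-fold was 1 as well. Leaving out each library in turn gave 2 to 5 passing and 2 or 3 over 2-fold. The share of all genes that passed moved as well, from 27.6% to 32.2% and 32.6% with limma on TPM, 34.5% with the GC correction, 33.8% with the block, alone or with copies, 41.8% with the block and GC correction, 7.84% against a minimum fold of 2, and 15.1% to 40.0% with each library left out. All other settings stayed within 1.5 times the reported counts. Log2 fold changes kept their sign except for Ftl1 with pseudogene copies added by name (-0.18), with copies found by sequence (-0.18), with the block and copies (-0.15) and with the GC correction and copies (-0.26); for Hmox1 (0.081) and Ireb2 (-0.15) without Rpl22+/+ replicate 2, with or without copies, where leaving out each library gave -0.34 to 0.081 and -0.15 to 0.51; and for Slc11a2 with a length offset (-0.10). The turn of Ftl1 follows from the reads added; the cause of the others was not tested.

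In the iron lists 13 genes were higher. The count was 29 with no composition factor, 26 with limma on log2(TPM + 1) or log2(TPM + 0.1), 21 with the block and GC correction, and 5 to 27 with each library left out; the count of lower genes, 21, was 14 to 31 over the 19 alternatives run for the lists, which do not say that they were the same genes. With no composition factor the all-gene median log2 fold change moved from 0.066 to 0.19. The 27 was without Rpl22+/+ replicate 2; the cause was not tested. Member transcripts passing the usage test were 0, but 1 with no filter on low counts (a transcript of Fth1), 1 without Rpl22+/+ replicate 2 (a transcript of Fth1) and 1 without Rpl22-/- replicate 2 (a 718-base transcript of Slc11a2). The search for copies by sequence and its combinations with the block, the GC correction and the omission of Rpl22+/+ replicate 2 were chosen after seeing the data. The replicate block changed no other call of a member than those of Tfrc, Fth1 and Ftl1. Depth was at least 236 reads for each member in each library. The parts of counting error, of library spread and, for Ftl1, of the division of reads among copies were not separated.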
